A study of Mus musculus with 8 samples.

Results

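Long intergenic non-coding RNA (lincRNA) probes that lie far from any protein-coding gene, and whose region was placed on the array on 1 strand only, were examined in mouse fibroblasts treated with cordycepin. A probe was included when its description on the array named a lincRNA region, when only the forward (F) or only the reverse (R) strand of that region was represented, and when no probe for a RefSeq mRNA (accession beginning NM_) lay within 100 kb on either strand. These criteria use the array design alone and no measured value. They gave 1515 probes of 60 bases in 576 regions, out of 16251 lincRNA probes and 55681 probes on the array. There were 746 probes on the forward and 769 on the reverse strand. Most regions, 387, had 3 such probes, 98 had 1, and the largest number was 5. Probes of a region share its transcripts and are not independent measurements. The median region was 4050 bases long, and the median probe lay 190 kb from the nearest mRNA probe, with a largest distance of 2030 kb.

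The isolation holds for this array and not for the genome. Of 26732 mRNA probes, 1213 had no position and could not exclude a neighbour, and 988 of the isolated probes (65.2%) had a probe of another kind of transcript within 100 kb. Single-strand refers to the exact bounds of a region: 254 of the regions, with 670 probes, overlapped a lincRNA region of other bounds on the opposite strand. Positions are those of mouse build mm9. Gene and microRNA names around a region were taken from a RefSeq table of build GRCm38.p6 by the order of neighbouring genes. Exons and introns were not assigned, because no annotation of mm9 was used here.

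The cells were NIH3T3, an immortalised mouse embryonic fibroblast line, grown in 10% newborn bovine serum on 15 cm plates and starved in 0.5% serum for 24 h. The groups hybridised were 3 arrays of cells given 20 µM cordycepin in DMSO and then serum (90 min of cordycepin and 30 min of serum in all), 3 of cells given 0.1% DMSO and then serum for 30 min, and 2 of cells given no serum, for which the labels do not name the vehicle. No array represented cordycepin without serum, so its effect was seen only in the presence of serum. The design text speaks of an independent triplicate, and the labels do not say whether the 2 arrays without serum came from independent cultures. In bulk RNA, fewer cells with a transcript and less of it per cell cannot be told apart, and the arrays measure levels, not synthesis or decay.

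LincRNAs are transcripts longer than typical small RNAs, made outside protein-coding genes and without a long reading frame. Many are capped, spliced and polyadenylated like mRNAs, and many are made at low levels and kept in the nucleus, where the RNA exosome removes short-lived ones. Some are the primary transcripts from which microRNAs, short RNAs that repress mRNAs, are cut. Cordycepin, or 3′ deoxyadenosine, is an adenosine analogue whose triphosphate is known to end the chain in polyadenylation. The study states that it does not end the chains of pre-mRNA in general in intact cells.

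The 60-base probes of 9 of the named regions, chosen to cover the drops and rises that the results turn on and the 2 hexamers, are given here 5′ to 3′ in the sense of the measured strand, as deposited, since each value below belongs to such a stretch of RNA. Capitals mark the polyadenylation signal hexamers AATAAA and ATTAAA. The first 5 detected less RNA with cordycepin and the last 4 more.
chr6:31007262-31007321 R, between Klf14 and Mkln1: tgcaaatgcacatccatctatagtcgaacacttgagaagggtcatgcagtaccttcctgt
chr14:115445828-115445887 F, between Slitrk5 and Gpc5: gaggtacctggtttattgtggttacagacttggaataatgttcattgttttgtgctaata
chr2:128217545-128217604 R, between Acoxl and Anapc1: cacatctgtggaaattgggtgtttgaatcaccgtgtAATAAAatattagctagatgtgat
chrX:18734285-18734344 R, between 4930578C19Rik and Chst7: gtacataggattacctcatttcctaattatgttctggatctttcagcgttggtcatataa
chr15:85510739-85510798 F, between Wnt7b and Ppara: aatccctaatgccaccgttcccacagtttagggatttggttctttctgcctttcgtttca
chr2:115900563-115900622 F, between Meis2 and Tmco5: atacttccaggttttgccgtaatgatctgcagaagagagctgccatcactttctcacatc
chr8:19962775-19962834 R, between Defb7 and Defa21: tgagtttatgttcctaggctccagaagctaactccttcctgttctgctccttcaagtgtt
chr9:41425723-41425782 F, between Ubash3b and Sorl1: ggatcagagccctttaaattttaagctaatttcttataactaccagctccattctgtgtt
chr3:60292608-60292667 R, between Sucnr1 and Mbnl1: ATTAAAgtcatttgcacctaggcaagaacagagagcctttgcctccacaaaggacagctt

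The levels below are log2 of the processed signal, relative to the 75th percentile of their own array, so 0 is the level of a bright probe and most isolated lincRNA probes lie below it. Testing required a signal well above background on each array of some group. This left 554 isolated probes (36.6%) in 289 regions, against 43.5% of the other lincRNA probes and 55.4% of all probes, and 961 were not tested. On all 8 arrays 407 were well above background, and 778 were so on none. On single arrays 30.9 to 40.4% of the isolated probes and 51.1 to 57.1% of all probes were well above background. Within groups, pairs of arrays correlated with r of 0.967 to 0.983 over the isolated probes tested, and 0.992 to 0.995 over all probes tested. No spot was saturated. All 10 fibroblast marker genes, such as Col1a1, Vim and Fn1, were well above background on all arrays and none was called, while 1 of 4 epithelial, 2 of 4 haematopoietic, 2 of 3 endothelial and 3 of 3 neural markers were tested, also with none called. Fos, Fosb, Egr1 and Junb, immediate early genes that serum induces, rose with serum and were lower with cordycepin (4 of 4 each way).

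The arrays of cordycepin plus serum were set against those of serum alone to ask what the drug does to these transcripts. Isolated lincRNAs moved in both directions in nearly equal numbers. Of the 554 probes, 50 were called higher (9.03%) and 45 lower (8.12%) by limma (adjusted p under 0.05, log2 difference at least 1 in size), and 221 had an unadjusted p under 0.05. Over all 30857 probes tested, 7.56% were higher and 2.99% lower by the same criteria. The share of rises was thus near that of the array, and the share of drops was above it. In the 164 tested probes with no other transcript within 100 kb, rises were 4.27%, below the array's share, and drops 6.1%. Drops were above the array's own share under each scaling, background correction, filter and choice of probes that was tried, most narrowly without a filter on dim probes (2.18% against 1.53%), and in the 229 probes of regions without an overlapping lincRNA region on the opposite strand they were 4.37%. The log2 differences ranged from -2.13 to 5.78 with a median of 0.04, against a median of 0.09 over all probes. The calls fell in 29 regions with a rise and 24 with a drop, and no region held both. The balance depends on the scaling: quantile normalisation gave 42 higher and 65 lower (39.3% of the calls higher, against 52.6%), and centring on the spike-in probes gave 28 and 21 (57.1%).

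Many of the rises began at or below the detection limit, while the drops were mostly measured in both groups. Of the 50 rises, 16 in 11 regions had no serum array well above background, and 10 more had only some. The 16 passed the filter only through other groups. Of the 45 drops, 35 were well above background on every array of both groups, and 5 were below it on all cordycepin arrays. Among the 407 probes well above background on all arrays of both groups, 24 rose (5.90%) and 35 fell (8.60%), set beside 4.16% and 2.68% of the 26938 probes of the whole array that met the same condition.

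**Figure D1:**
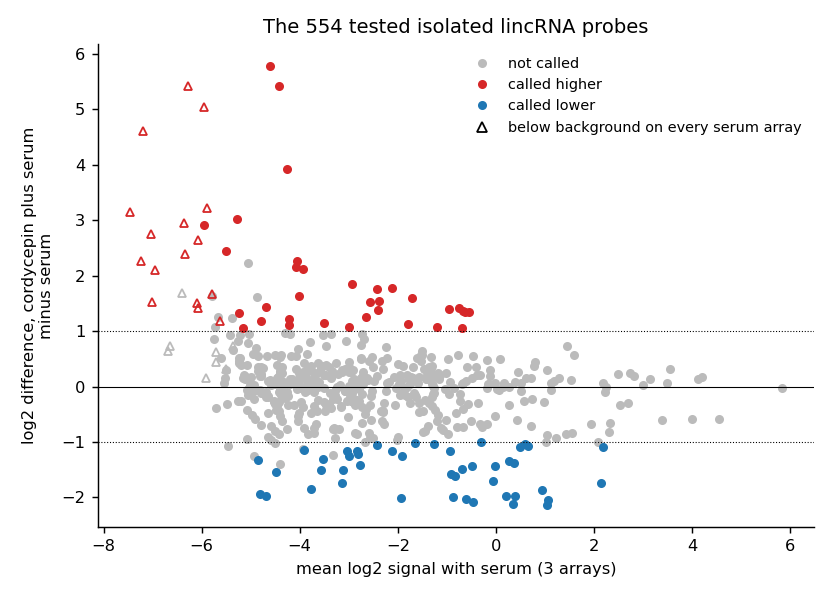
Each point is an isolated lincRNA probe that was tested, with its mean level over the 3 serum arrays on the horizontal axis (log2 relative to the 75th percentile of the array) and the log2 difference of cordycepin plus serum from serum on the vertical axis. Triangles are probes below background on all serum arrays. The 50 called rises reach 5.78 and lie mostly at low serum levels, and the 45 called drops reach -2.13.

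Of the 4 deepest drops measured in both groups, 3 lay in intervals where microRNA genes are listed. In the region chr6:31007184-31007725 on the reverse strand, between Klf14 and Mkln1, an interval where Mir29a and Mir29b-1 are listed, the probe read 1.29, 1.02 and 0.80 on the serum arrays, -1.27, -0.78 and -1.23 with cordycepin, and 1.19 and 1.04 without serum. The 3 cordycepin arrays lay below all of the others, and the serum and no serum arrays overlapped. The log2 difference was -2.13 ± 0.18 (SE, limma adjusted p = 9.9e-05), and the 2 other probes of the region read -2.04 and -1.98. The microRNAs of this family are known for repressing collagen and other matrix mRNAs in fibroblasts.

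The probe between Slitrk5 and Gpc5 (chr14:115443612-115445950 F) lies in an interval where Mir17, Mir18, Mir19a, Mir20a, Mir19b-1 and Mir92-1 are listed (a cluster known for promoting proliferation). It read 0.14, 0.26 and 0.63 with serum, -1.85, -2.07 and -1.39 with cordycepin and 0.31 and -0.09 without serum. Again the cordycepin arrays stood apart and the serum and no serum arrays did not. The difference was -2.12 ± 0.21 (SE, adjusted p = 0.00026). All 3 probes of the region were called, between -2.12 and -2.02. A probe for Mir17hg, the host transcript of the cluster, has the same 60 bases as a probe of this region and read -2.15 ± 0.23 (adjusted p = 0.00038), so it repeats the measurement on other spots.

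Between 4930578C19Rik and Chst7 (chrX:18734106-18744367 R), with Mir221 and Mir222 listed on the same strand, the levels were 0.39, 0.69 and 0.11 with serum, -1.11, -1.81 and -1.84 with cordycepin and -0.46 and -0.33 without serum. The 3 groups did not overlap, with the serum arrays highest and the cordycepin arrays lowest. The drop with cordycepin was -1.98 ± 0.23 (adjusted p = 0.00048) and the difference of 0.79 ± 0.25 with serum was not called (adjusted p = 0.24). The 2 other probes of the region read -1.97 and -1.86, and the probe of another transcript name there, LOC100503338, read -2.78 ± 0.59 (adjusted p = 0.012). The nearest mRNA probe on the array is assigned to Rpl36, a gene that the RefSeq table lists on another chromosome, so the distance of this probe depends on the array's own placement.

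The region chr2:128217275-128217972 on the reverse strand, between Acoxl and Anapc1, held the remaining one of the 4 deepest drops measured in both groups. Morrbid, a lncRNA known for controlling the survival of short-lived myeloid cells, is listed in this interval. Its probe read -1.54, -2.27 and -1.98 with serum, -3.34, -3.87 and -4.59 with cordycepin and -2.29 and -2.57 without serum. The cordycepin arrays lay below the other 5, with the widest spread of the 3 groups. The difference was -2.00 ± 0.32 (adjusted p = 0.0027). With normexp background correction it was -0.74, below the fold limit. Here too the nearest mRNA probe is assigned to a gene, Hmgn2, that is listed elsewhere.

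The largest rise measured in both groups was in the region chr8:19959345-20020379 on the reverse strand, between the defensin genes Defb7 and Defa21. The probe read -3.66, -4.37 and -4.76 with serum, -0.23, -0.47 and -0.33 with cordycepin and -4.19 and -4.54 without serum. The 3 cordycepin arrays lay close together and far above the other 5, which overlapped. The log2 difference was 3.92 ± 0.26 (adjusted p = 3.9e-05). The 2 other probes of the region rose by at least 20.5-fold and at least 6.42-fold (adjusted p = 6.2e-06 and 4.5e-05), with no serum array well above background. Both passed the filter only through the cordycepin arrays, where they were high, so their adjusted p-values add no support. Here and below, "at least" compares the mean of the brighter group with the lowest level that was still well above background on each array of the dimmer group, or with the probe's own level where that was higher. Probes for 2610005L07Rik, which lie in the bounds of this region on the same strand, differed by 1.40 (adjusted p = 0.0003), 0.48 and -0.24, and only the first was called.

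The other 7 of the 8 largest rises measured in both groups lay between 1.41 and 2.26. In chr13:28490070-28492645 R, between Prl5a1 and Sox4, the probe read -3.68, -4.54 and -3.98 with serum and -1.69, -2.19 and -1.55 with cordycepin, a difference of 2.26 ± 0.32 (adjusted p = 0.0015). Its groups did not overlap, and a further probe was called (2.12), but the remaining probe of the region read 0.95 (adjusted p = 0.27), with serum array 2 at -1.36 against -3.44 and -3.37 on the others. In chr1:36012298-36020311 R, between Plekhb2 and Hs6st1, the levels were -4.06, -4.13 and -4.08 with serum and -1.93, -2.08 and -1.76 with cordycepin (2.16 ± 0.13, adjusted p = 2.1e-05). This was the tightest serum group of the 8. Of the 3 tested probes of the region 2 were called, and the lowest read 0.36.

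In chrX:12760566-12761600 F, between AA414768 and Ddx3x, the rise was 1.85 ± 0.20 (adjusted p = 0.00034), with 1 of the 3 probes called. In chr8:19682258-19700836 F, on the opposite strand of the defensin interval, it was 1.77 ± 0.14 (adjusted p = 7.7e-05), with all 3 probes called from 1.39 upwards. In chr17:6830756-6832322 R, between Tmem181a and Sytl3, it was 1.76 ± 0.18 (adjusted p = 0.00028), again with 3 of 3 probes called. The probe between Sucnr1 and Mbnl1 (chr3:60292527-60292880 R), which begins with the hexamer ATTAAA, rose by 1.64 ± 0.17 (adjusted p = 0.00026). In its region 2 of 3 probes were called, and the lowest read 0.57. The eighth, in chr5:22890322-22939119 R between Lhfpl3 and Kmt2e, rose by 1.41 ± 0.28 (adjusted p = 0.0082). Its probe holds a stretch of 23 bases that occurs more than once in the 60, and its region overlaps a second region (chr5:22887983-22939658 R) with 3 called probes of 1.13 to 1.36. Probes for 5031425E22Rik in the same bounds read 0.26 to 0.70 and were not called.

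The rises with the largest lower bounds from below background included a region that fell with serum and rose with cordycepin. In chr2:115900355-115900904 F, between Meis2 and Tmco5, the probe read -3.10 and -3.94 without serum, -6.12, -6.97 and -5.77 with serum and -1.12, -0.67 and -0.83 with cordycepin plus serum. The 3 groups were fully separated, in the order serum, no serum, cordycepin plus serum. With cordycepin the probe was at least 21.1-fold higher than with serum alone (fitted log2 difference 5.41 ± 0.33, adjusted p = 2.6e-05). The other 2 probes, well above background on 2 of the 3 serum arrays, read 5.43 ± 0.22 and 5.78 ± 0.51 (adjusted p = 7.3e-06 and 0.00013).

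In chr9:41422319-41425855 F, between Ubash3b and Sorl1, the levels were -5.78, -5.61 and -6.30 with serum, -2.52, -2.86 and -2.63 with cordycepin and -4.03 and -4.91 without serum, again with no overlap between the 3 groups. The rise with cordycepin was at least 6.08-fold (adjusted p = 8.5e-05). In chr17:10517466-10522172 F, between Qk and Park2, they were -5.84, -5.67 and -6.74 with serum and -3.14, -3.62 and -3.58 with cordycepin, at least 3.55-fold higher (adjusted p = 0.00037). No serum array was well above background in either region. With normexp the fitted difference of the latter was 0.75 and lost its call.

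**Figure D2:**
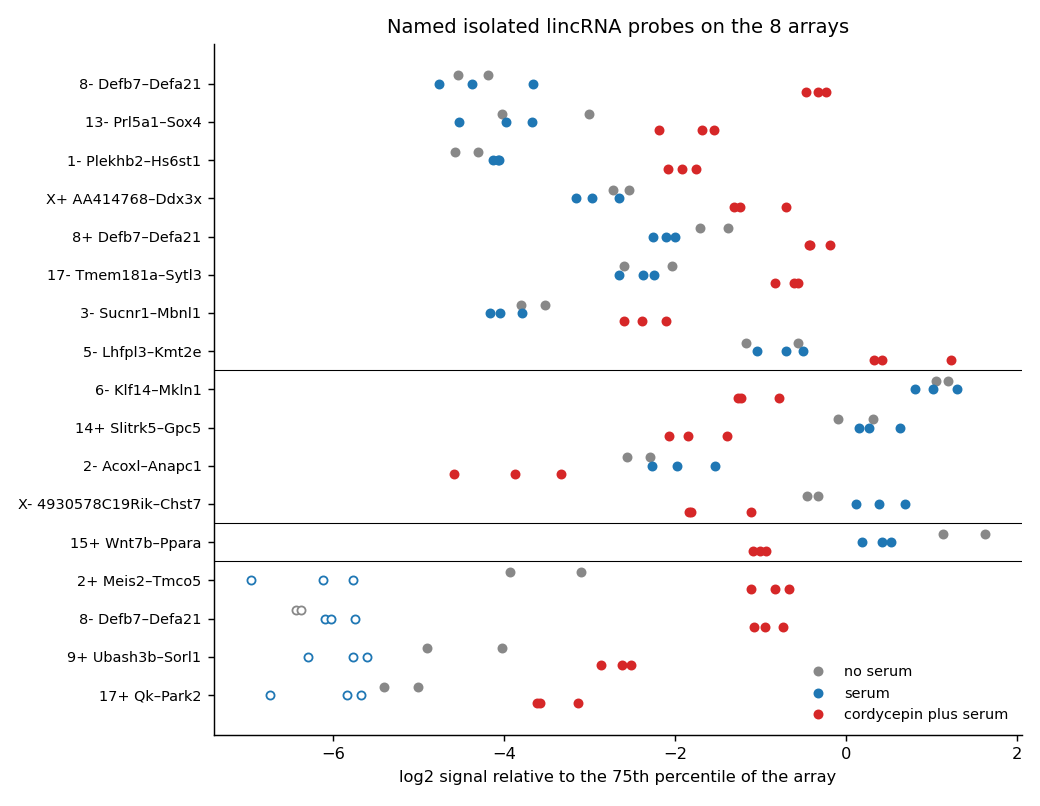
Levels of the named lincRNA probes on each array (log2 relative to the 75th percentile of the array), with a row for each probe, labelled by chromosome, strand and flanking genes, and a colour for each group. Filled symbols were well above background on at least 1 array of the group and open symbols on none. The Meis2–Tmco5 probe lies between -6.97 and -5.77 with serum and between -1.12 and -0.67 with cordycepin plus serum.

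In regions with a call, the probes mostly moved together. Of the 21 regions with a rise and at least 2 tested probes, all tested probes had the same sign in 20 and all were called in 9. Of the 22 such regions with a drop, the signs were the same in 21 and all were called in 9. Each region was selected for a called probe, which is counted here, and its probes often lie close together. Regions without a call were not counted. Another called region of the same direction lay within 100 kb on the same strand for 8 of the 24 regions with a drop and for 2 of the 29 with a rise. How often any tested region had another tested one so near was not counted, so whether drops cluster was not tested. Tested probes of transcripts with another name and another sequence lay on the same strand in the bounds of 43 regions. Of 3 such regions with a drop, the others read -2.78 in chrX:18734106-18744367 (called) but -0.03 in chr12:110967974-110969051, a probe for Mirg, and -0.11 in median in chr11:112905201-113062945, where 1 of 3 was called. Of 7 with a rise, the median of the others was above 0 in 6, and a rise was called for 1 other probe each in chr8:19959345-20020379 (1.40) and chr7:77555482-77634858 (1.39), the latter beside one called lower (-1.04). Across these 43 regions the medians correlated with r of 0.47 and rho of 0.50, as a description of regions on shared arrays. In 6 regions a probe of another name had the same 60 bases as a lincRNA probe, and these were left out of the counts of other probes.

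The isolated probes were set beside the other lincRNA probes to see whether distance from mRNA genes goes with the response. No test was made between classes, which share arrays and probes of a region. Of 2318 single-strand lincRNA probes with an mRNA probe within 100 kb, 21.3% rose and 3.67% fell, with a median difference of 0.21. LincRNA regions on both strands gave 17.1% and 3.43% of 4052, and mRNA probes 3.5% and 2.52% of 17894. The isolated probes had a lower share of rises and a higher share of drops than both of these lincRNA classes. The 33 remaining lincRNA probes tested gave 3.03% and 9.09%. With normexp, quantile and spike-in scaling the nearer probes gave 8.15%, 18.5% and 15.7% rises, against 3.97%, 7.58% and 5.05% for the isolated ones.

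The shares changed with distance along the whole range. From 0 to 5 kb of the nearest mRNA probe 20.9% of single-strand lincRNA probes were called higher, from 5 to 20 kb 30.1%, from 20 to 50 kb 15.0% and from 50 to 100 kb 16.8%. Beyond the limit, the isolated probes gave 8.9% from 100 to 200 kb, 9.95% from 200 to 500 kb and 3.7% of only 27 probes farther out. Drops went from 2.32% within 5 kb to 5.67% from 50 to 100 kb, 8.9% from 100 to 200 kb, 5.97% from 200 to 500 kb and 14.8% of the 27. Downstream of an mRNA probe on its own strand the share of rises from 5 to 20 kb was 45.0% of 342 probes, against 17.2% of 395 in the other orientations. From 50 to 100 kb the order was reversed, with 11.1% of 144 against 19.3% of 332. At 100 to 200 kb the share was 8.06% of 62, close to the 9.09% in the other orientations.

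**Figure D3:**
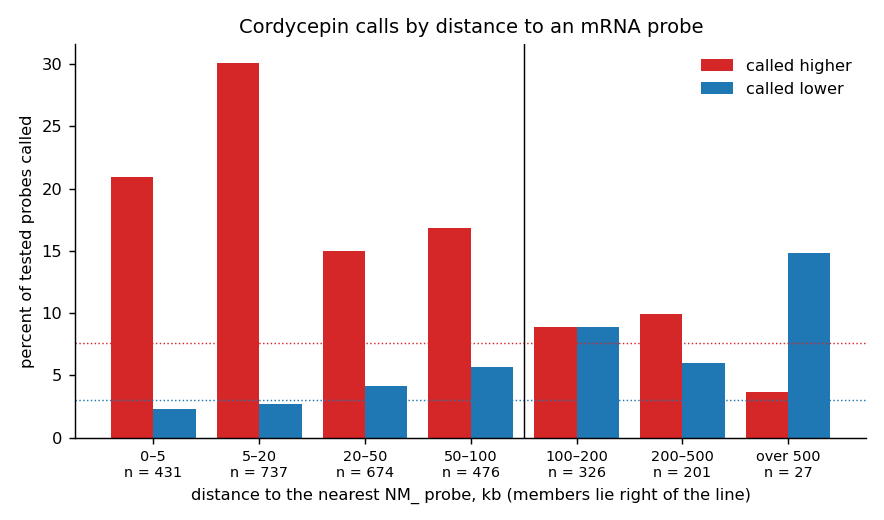
Percent of tested single-strand lincRNA probes called higher or lower with cordycepin (vertical axis), by the distance in kb to the nearest mRNA probe (horizontal axis), with dotted lines at the shares over all probes tested, 7.56% higher and 2.99% lower. Rises peak at 30.1% from 5 to 20 kb and drop to 8.9% from 100 to 200 kb, where drops are as frequent.

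Signal differed between the classes, so the shares were also taken within quartiles of the mean level over all arrays. In the dimmest quartile 10.3% of 263 isolated probes rose and 5.7% fell, against 28.8% and 3.15% of 1111 nearer single-strand probes. In the next quartile it was 8.67% in each direction of 196, against 19.3% and 4.13%. In the third, 7.5% of 80 isolated probes rose and 16.2% fell, against 4.33% and 4.0% of 300. None of the 15 isolated probes in the brightest quartile was called in either direction. The lower share of rises was thus seen in the 2 dimmer quartiles, which hold most isolated probes, and not in the third.

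**Figure D4:**
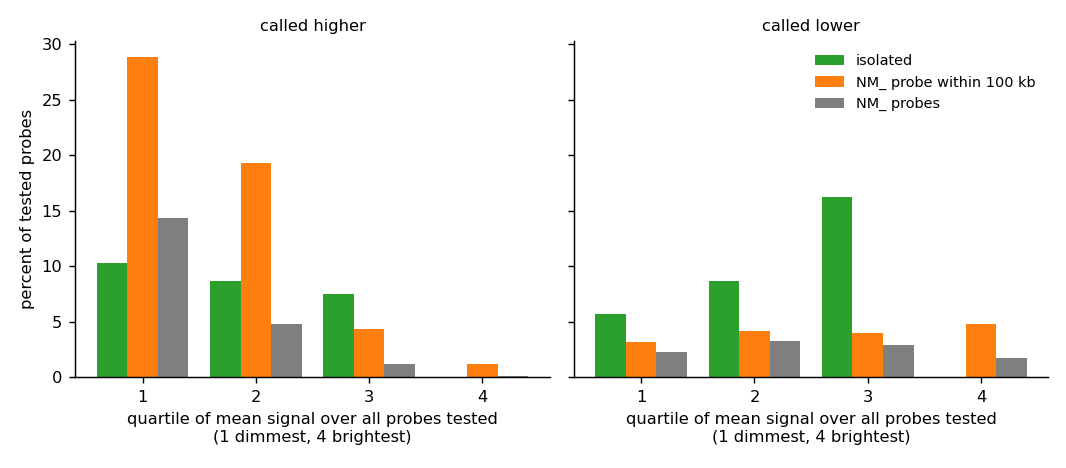
Percent of tested probes called higher and lower with cordycepin (vertical axis) in each quartile of mean signal (horizontal axis, 1 dimmest), for isolated single-strand lincRNA probes, single-strand lincRNA probes within 100 kb of an mRNA probe, and mRNA probes. Isolated probes show 10.3% rises against 28.8% for the nearer ones in quartile 1, and 16.2% drops against 4.0% in quartile 3.

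The 3 isolated probes with the highest mean signal changed little. The brightest (chr4:94742359-94822969 F, whose nearest mRNA probe is Jun) read 5.47 to 6.31 with serum and 5.64 to 6.07 with cordycepin, a difference of -0.02 ± 0.24 (adjusted p = 0.97). The next, chr8:19792940-19798868 F in the defensin interval, read 4.47 to 4.59 and 3.72 to 4.15, a difference of -0.58 ± 0.13 with an adjusted p of 0.015 that did not reach the fold limit. The last, chr4:32294119-32294941 F near Map3k7, differed by 0.17 ± 0.11 (adjusted p = 0.35).

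MicroRNA genes were often listed in the intervals of the regions with a drop. This was counted after the values had been seen, and is a description. Of the 289 tested regions, 267 could be placed between a pair of neighbouring genes whose order is the same in the RefSeq table. A microRNA gene on the same strand was listed in the interval for 11 of 24 regions with a drop (45.8%), 3 of 24 with a rise (12.5%), 27 of 219 without a call (12.3%) and 41 of all 267 (15.4%). The regions with a drop lie in 19 intervals, 8 of which hold such a gene. An interval may be long, and a listed microRNA gene need not be part of the transcript that a probe measures.

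The let-7 interval was also read with probes outside the isolated set. The probe of chr15:85510625-85511265 F, between Wnt7b and Ppara with Mirlet7c-2 and Mirlet7b listed, read 0.41, 0.18 and 0.52 with serum and -0.94, -1.0 and -1.09 with cordycepin, without overlap (-1.38 ± 0.16, adjusted p = 0.00045). All 3 probes of the region were called, from -1.43 to -1.35. Further lincRNA probes of a longer region on the same strand (chr15:85412264-85549139), which is not isolated, hold stretches of microRNA hairpins themselves. The one with a stretch of Mirlet7c-2 read -1.31 ± 0.14 (adjusted p = 0.00031). The one with a stretch of Mirlet7a-1 read -1.54 ± 0.21 (adjusted p = 0.0014). Mirlet7a-1 is not listed in this interval, and whether that probe detects RNA from elsewhere was not tested. Another lincRNA probe outside the isolated set, with a stretch of Mir8110, read 0.13 (adjusted p = 0.41) and was not called. An isolated probe with a stretch of Mir410 (chr12:110973190-110987668 F) read -0.32 (adjusted p = 0.052) and was not called. It lies in the Rtl1 to Dio3 interval, an imprinted domain with many microRNAs, where 2 of 3 probes of chr12:110967974-110969051 F were called (-1.21 and -1.54) and the remaining one read -0.09 (adjusted p = 0.70).

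Drops were also called in regions without a listed microRNA gene. All 3 probes of chr11:112905201-113062945 R, between Sox9 and Slc39a11, were called from -1.74 to -1.25, and a probe for the lncRNA 2610035D17Rik in its bounds read -1.11 ± 0.20 (adjusted p = 0.0048), while a second one under that name read -0.11. All 3 probes were called in chr9:13349094-13352732 F, between Cntn5 and Maml2 (-1.09 to -1.0), and in chr9:31873801-31874407 F, between Barx2 and Arhgap32 (-1.94 to -1.04). These regions were chosen for the number of their probes called.

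Several regions in line between the same pair of genes allowed the difference to be followed along a strand, although it is not known which of them belong to a common transcript. On the reverse strand from Mkln1 to Klf14, where the lncRNA Lncpint is also listed, the first region read -0.81 to -0.67 with no call. The region 36.7 kb farther on read -1.0 to -0.82, also without a call. At 77.8 kb the single tested probe was called with a fitted -1.85. No cordycepin array was well above background for it, so the size of its drop is uncertain. At 108.1 to 108.4 kb the 3 probes of the last region read -2.13 to -1.98. The fitted drop was deeper in each region 3′ of the one before, with that limit at 77.8 kb. The forward strand of the interval read -0.11 to -0.05.

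On the forward strand between Ubash3b and Sorl1, with Mir100, Mirlet7a-2 and Mir125b-1 listed, the sign changed along the strand. The first 3 regions, up to 159.2 kb, held 8 tested probes between -1.17 and -0.29, of which 2 were called lower. The probe at 210.5 kb read 0.83, and the 3 probes at 215.4 to 215.5 kb had fitted rises of 2.45 to 3.22. Mean serum levels of these probes, from -5.89 to -5.26, were near or below the detection limit, so the sizes are uncertain. The probe with 3.22 had no serum array well above background and was at least 6.08-fold higher. On the reverse strand from Anapc1 to Acoxl the order was the other way. The 6 probes of the first 2 regions fell, with values from -2.00 to -1.48, and the regions 75.7 and 80.3 kb farther on read -0.62 to -0.48 and -0.01 to 0.04, with no call. Between Prl5a1 and Sox4 a region with a rise and one with a drop lay on the same strand: chr13:28898970-28901714 R had 1 of 3 probes called lower (-1.32), while chr13:28490070-28492645 R rose.

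**Figure D5:**
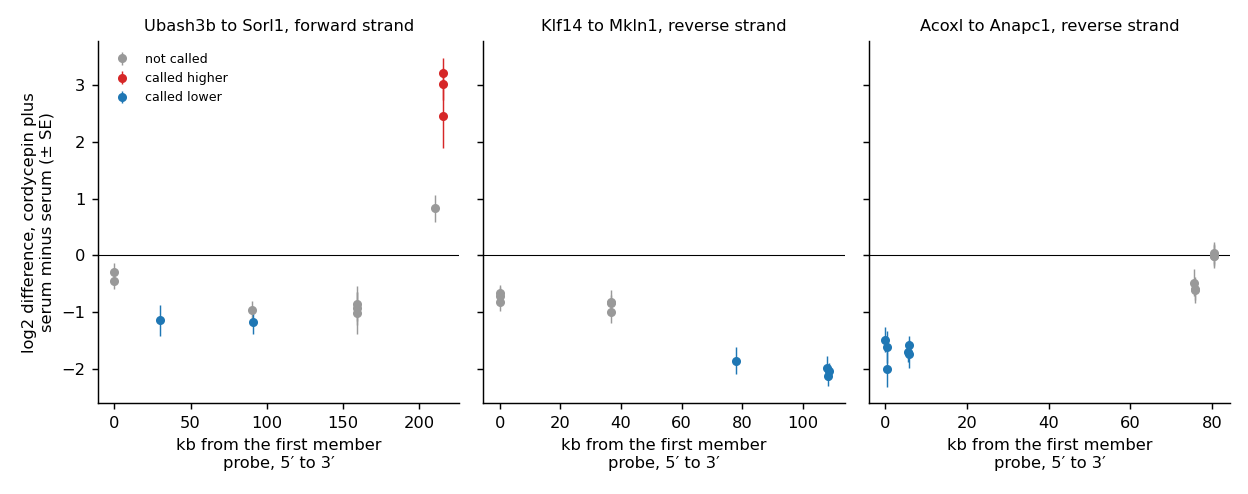
Log2 difference of cordycepin plus serum from serum (vertical axis, bars are ± SE from limma) for the isolated lincRNA probes of 3 intervals, by the distance in kb from the first tested probe, 5′ to 3′ along the strand (horizontal axis). It goes from -0.29 to 3.22 between Ubash3b and Sorl1, where the last value is fitted from below background with serum. It deepens to -2.13 between Mkln1 and Klf14, and goes from -2.00 to 0.04 between Anapc1 and Acoxl.

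The response of isolated lincRNAs to serum was asked by comparing serum alone with no serum. The calls were mostly losses, and nearly all of these were near background. Of 554 probes, 1 was called higher (0.181%) and 15 in 10 regions lower (2.71%), against 0.878% and 0.898% of all probes tested, with 82 at an unadjusted p under 0.05. Drops were nearly as frequent in the other lincRNA classes, with 2.5% of the nearer single-strand probes and 2.47% of those on both strands. Only 1 of the 15 drops was well above background on all arrays of both groups, and 9 had no serum array well above background. Of the 439 isolated probes measured on all arrays of both groups, 1 was called lower (0.228%). Over the 27492 probes of the whole array that met the same condition the share was 0.48%, and a count of 1 is too small to compare with it. The 1 drop measured in both groups was the lincRNA probe between Wnt7b and Ppara. It read 1.62 and 1.13 without serum and 0.41, 0.18 and 0.52 with it (-1.0 ± 0.17, adjusted p = 0.027). The count rests on few arrays: without no serum array 1 it was 7, and without no serum array 2 or cordycepin array 2 it was 8, while rises numbered 3 without no serum array 1 and 0 without no serum array 2. With normexp there were 3 rises and 4 drops. In the region between Wnt7b and Ppara the groups did not overlap, and the other probes read -0.97 and -0.96. Its drop with serum and its drop with cordycepin were in the same direction, and cordycepin plus serum lay 2.38 ± 0.17 below no serum on the log2 scale (adjusted p = 9.7e-05).

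The only rise with serum was in chr7:143759700-143760147 R, between Mki67 and Mgmt. It read -6.02 and -7.49 without serum, -3.93, -3.87 and -4.03 with serum and -4.45, -5.47 and -5.31 with cordycepin plus serum. The serum arrays were the highest, and those without serum were below background, so the probe passed the filter only through the serum arrays. The rise was at least 3.02-fold (fitted 2.81 ± 0.43, adjusted p = 0.016), and the difference of -1.13 with cordycepin was not called (adjusted p = 0.082). The 2 other probes of the region were not tested. In chr13:108653722-108654406 R, between Zswim6 and Smim15, all 3 probes were 1.24 to 1.40 higher with serum without a call (adjusted p = 0.069 to 0.12), and 2 of them were called lower with cordycepin (-1.06 and -1.04).

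The 3 probes between Meis2 and Tmco5 had fitted drops with serum between -3.37 and -2.77. The probe described above was at least 3.38-fold lower (adjusted p = 0.0091). In chr2:94017095-94019092 R, between Hsd17b12 and Ttc17 with Mir129-2 and Mir670 listed, the 3 probes were called lower with serum and higher with cordycepin. The first read -4.59 and -3.98 without serum, -6.46, -6.99 and -7.42 with serum and -4.39, -4.68 and -5.49 with cordycepin plus serum. The serum arrays were all below background and below the other 5, which overlapped. It was at least 1.99-fold lower with serum and at least 1.34-fold higher with cordycepin (adjusted p = 0.012 and 0.0030). Since both comparisons use the same 3 serum arrays, a low reading on them enters both with opposite sign.

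In the interval from Nr5a2 to Ptprc, with Mir181a-1 and Mir181b-1 listed, probes of 2 forward-strand regions were called lower with serum: chr1:139795171-139796306 (fitted -2.16 and -2.04) and chr1:139806645-139809498 (fitted -2.22). Their mean serum levels were -6.69, -5.46 and -5.52, near or below the detection limit, so the sizes of these drops are uncertain. The neighbouring chr1:139822286-139822985 read -1.87 to -1.66 with serum without a call (adjusted p = 0.057 to 0.16), and 1 of its probes was called lower with cordycepin (-1.31). The probe of the Ubash3b–Sorl1 interval was 1.43 lower with serum at an adjusted p of 0.050, just under the limit, and lost the call under most other settings. Single probes between Hdac4 and Olfr1416 (-1.90), between Qk and Park2 (-1.38), between Pkn2 and Lmo4 (-1.17) and in chr2:175908275-175927625 F (-1.39) made up the rest. These are fitted values too, and the mean serum level of the last was -6.07.

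Cordycepin plus serum was last compared with no serum, which shows how far the treated cells lay from the starved state. Here 41 probes rose (7.40%) and 52 fell (9.39%), compared with 6.46% and 3.08% of all probes tested. The 41 fell in 24 regions and the 52 in 27. Without no serum array 1 the drops numbered 28. The split changed with the scaling, to 12 higher and 37 lower on the spike-in probes, 33 and 66 with quantile normalisation and 23 and 19 with normexp. The drops in the intervals of Mir29a, Mir17 and Mir221 were called here as well, at -2.21 ± 0.20, -1.88 ± 0.24 and -1.19 ± 0.25 for the probes described above (adjusted p = 0.00023, 0.0012 and 0.015). So were the rises between Defb7 and Defa21 (4.02 ± 0.29, adjusted p = 9.4e-05), between Meis2 and Tmco5 (2.64 ± 0.37, adjusted p = 0.0020) and between Ubash3b and Sorl1 (1.80 ± 0.29, adjusted p = 0.0041). Both comparisons share the cordycepin arrays. In chr2:94017095-94019092 R no probe was called in this comparison (-0.83 to -0.57).

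Calls were unevenly spread over features that the selection did not use. Probes on the strand of the nearest mRNA probe were called higher with cordycepin in 4.70% and lower in 11.4% of 298 cases, those on the opposite strand in 14.1% and 4.30% of 256. Upstream of the mRNA probe and on its strand the shares were 2.38% and 13.1%, and downstream on the opposite strand 17.1% and 1.8%. Regions that overlapped a lincRNA region on the opposite strand gave 9.23% rises and 10.8% drops of 325 probes, the others 8.73% and 4.37% of 229. The forward and reverse strands were alike (7.78% and 7.78%, 10.2% and 8.45%). Regions under 1 kb gave 6.08% and 11.5%, those of 1 to 10 kb 13.1% and 9.52%, and longer ones 7.98% and 5.04%. These shares were not tested, and calls of a region or interval enter them together.

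By chromosome, rises were most frequent on chromosome 5 (7 of 23 probes), where 6 of them lie in the overlapping regions between Lhfpl3 and Kmt2e, and on chromosome 2 (13 of 49). On chromosome 2, 6 of the 13 came from the stretch between Gm14393 and Gm14296, a family of similar zinc finger genes. There the gene order differs between the array and the RefSeq table, the probes may bind RNA of several copies, and 1 probe of another name in these bounds read 0.36 and one -0.43. Chromosome 9 held the largest number of drops (8 of 31 probes), all of them in the intervals named above, and chromosome 11 the largest share (3 of 7, all of the region between Sox9 and Slc39a11).

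The probes called lower had a median of 40.0% G and C, those called higher 44.2% and those not called 45.0%. The probes were searched for the polyadenylation signal hexamers AATAAA and ATTAAA as written, in the sense of the probe only. AATAAA occurred in 10.1% of all probes on the array, 3.92% of lincRNA probes and 4.55% of the isolated ones, and in 3 of the 50 called higher and 2 of the 45 called lower. ATTAAA occurred in 3.95%, 2.47% and 2.64%, and in 2 of 50 and 2 of 45. A 60-base probe covers a small part of a region, and a match is not a site in use.

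The limit of 100 kb was examined at its edge. The nearest isolated probes lay 100.2, 100.5 and 100.7 kb from an mRNA probe (of Ptprc, Gatb and Pcdh10). The first 2 were on no array well above background, and the third, in chr3:45081952-45092352 F, differed by -0.02 ± 0.12 with cordycepin (adjusted p = 0.95), although another probe of that region was called lower (-1.43). The lincRNA probes just within the limit lay at 99.7, 99.5 and 99.2 kb (Gpc1, Mef2c and Ywhaz), and the only one tested, near Mef2c, differed by -0.02.

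Among lncRNAs with known names, 20 of the 29 listed were tested, and 2 rose and 1 fell with cordycepin, with a median of -0.01. Dancr and Snhg3 rose by 1.99 ± 0.11 (adjusted p = 1.9e-05) and 1.07 ± 0.23 (adjusted p = 0.012), and Malat1, a nuclear lncRNA that is not polyadenylated in the usual way, fell by 2.44 ± 0.29 (adjusted p = 0.00059). Of the genes for nuclear RNA decay and transcript termination, 37 were tested, counting those listed under 2 names once. None rose, and only Papolg, a nuclear poly(A) polymerase, fell (-2.31 ± 0.16, adjusted p = 4.8e-05), with a list median of 0.04. Over the whole array 7.56% of probes rose and 2.99% fell.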

How the data were processed

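Total RNA of 8 samples was amplified, labelled with Cy3 and hybridised to Agilent mouse arrays with 1 colour. The deposited files hold the scanner's linear intensity of each spot. Their headers show that the authors made them with Agilent Feature Extraction 10.7.3.1, which gives a processed signal after local background subtraction and spatial detrending, with flags for outlier spots and for spots well above background. Groups were taken from the labels. The study's methods name limma but no normalisation or filter.

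Outlier and control spots were left out, spots of a probe were averaged on the log2 scale, and each array was centred by its 75th percentile, so that a shift common to most RNAs is removed. The fit used limma 3.58.1 in R 4.3.3 over the 30857 probes that all arrays of some group measured well above background. It had a mean for each group, a spread estimated over the 8 arrays together, and no covariate. P-values are two-sided, with Benjamini-Hochberg adjustment over the same probes. Counts, figures and sequence searches were made in Python 3.11.15. The calculation was tested on simulated data. With 2 or 3 arrays a group, the number of arrays limits the precision. The slide and the scan were common to all arrays.

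The members and gene lists were chosen with earlier results of these data known. Named probes were, 1 per region, the 8 largest rises and 4 largest drops with cordycepin among called probes measured above background on all arrays of both groups whose arrays did not overlap, the 4 rises with the largest lower bound among probes below background on all serum arrays, up to 4 rises and 4 drops with serum by the first rule (1 drop met it), the 3 brightest probes, and 3 probes on each side of the 100 kb limit. Further regions were named after their values were seen, as examples of a count or of a stretch between a pair of genes. Alternatives were another background correction (normexp, offset 50), quantile normalisation, centring on spike-in probes, other filters and call rules, the replicate number or the array row as a block, other sets of arrays and other definitions of an isolated probe. Gene symbols are those of the array, and neighbours come from RefSeq (GRCm38.p6), without its coordinates. MicroRNA hairpins were matched to probes over at least 25 bases.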

Additional observations from a re-analysis of the deposited data

How the results depend on the processing

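No named probe with a call changed direction under any alternative that was run. The counts of isolated lincRNA probes called higher and lower were 50 and 45 with cordycepin, 1 and 15 with serum, and 41 and 52 when cells with both were set against cells with neither. They follow in that order, and counts within 1.5 times of these are left out. Normexp gave 22 and 17, 3 and 4, and 23 and 19. Centring on the spike-in probes gave 28 and 21, and 12 higher in the last comparison, and it moved the median of all probes to -0.36 for serum and -0.33 for the last comparison. Without a filter on dim probes serum gave 0 and 3, and with only probes well above background on all 8 arrays there were 24 higher with cordycepin, 2 lower with serum and 21 higher in the last comparison. Without a minimum fold 84 were lower with cordycepin, with unadjusted p serum gave 4 and 23, and with only the arrays of both groups compared serum gave 5 lower. A distance of 50 kb, with 1030 probes tested, gave 130 and 72 (12.6% and 6.99%), 3 and 34, and 99 and 92. One of 200 kb, with 228 tested, gave 21 and 16 (9.21% and 7.02%), 6 lower with serum, and 20 and 16. The 164 tested probes with no other transcript within 100 kb gave 7 and 10 (4.27% and 6.1%), 2 lower, and 6 and 11. The brightest probe of each of 289 regions gave 21 and 15 (7.27% and 5.19%), 5 lower, and 18 and 20. With cordycepin, 7.56% of all probes tested were higher and 2.99% lower. Leaving out regions that overlap a lincRNA region on the opposite strand, an alternative chosen after seeing the data, gave 20 and 10, 6 lower, and 21 and 10. These last 5 alternatives use fewer or more probes by construction. For the others the cause was not tested.

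Leaving out each array in turn gave 47 to 54 higher and 36 to 51 lower with cordycepin, 0 to 3 and 7 to 13 with serum, and 32 to 42 and 28 to 55 in the last comparison. The serum counts were lowest without either array of the no serum group (7 and 8) and without cordycepin array 2 (8), and the 28 came from leaving out no serum array 1. With the replicate number as a block the counts were 53 and 45, 1 and 13, and 41 and 55. Deviations of same-numbered arrays correlated between -0.17 and 0.23, and those of differently numbered arrays between -0.32 and 0.32. With 2 or 3 arrays a group this cannot decide whether the numbers pair the samples. Of the named probes, 5 lost the cordycepin call under an alternative. With normexp the differences in chr2:128217275-128217972, chr3:60292527-60292880 and chr17:10517466-10522172 were -0.74, 0.82 and 0.75, under the fold limit. With spike-in centring those in chr15:85510625-85511265 and chr5:22890322-22939119 had adjusted p-values of 0.090 and 0.13. Probes near background have little room to show a drop.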
